A study of Arabidopsis thaliana with 72 samples.

Results

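The 10 genes described here are members of the Aux/IAA family of *Arabidopsis thaliana*, chosen by identifier: IAA1 (AT4G14560), IAA2 (AT3G23030), IAA3 (AT1G04240), IAA5 (AT1G15580), IAA6 (AT1G52830), IAA7 (AT3G23050), IAA14 (AT4G14550), IAA17 (AT1G04250), IAA19 (AT3G15540) and IAA29 (AT4G32280). They are 10 of the 33602 genes in the count matrix, and 19 other Aux/IAA genes were measured beside them. RNA was sequenced from leaves of plants grown on sugar-containing agar for 5 weeks with 10 h of light a day, and 2 leaves from each of 4 plants made up a sample. Each of 24 groups, set by 3 genotypes, 2 treatments and 4 times, had 3 biological replicates, which gave 72 libraries.

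The genotypes were the wild type Col-0 and 2 transgenic lines, LexA::icals3m and LexA::PD-Plug, here icals3m and PD-plug. Both lines carry an estradiol-inducible construct that closes plasmodesmata, the channels between neighbouring plant cells. In icals3m the construct makes a form of the callose synthase CALS3, whose product callose narrows the channel. Leaves were brushed on both faces with a solution of 20 µM estradiol, or of 0.1% DMSO for the mock groups, each with a wetting agent. They were taken at 12, 24, 48 or 72 h. The wild type received estradiol too, so its response measures what estradiol does without a construct. The labels do not say in which leaf cells the constructs were active, nor how many independent plants founded each line.

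Auxin is a plant hormone of growth and patterning. Aux/IAA proteins bind auxin response factors (ARFs) on DNA and hold their target genes silent together with TOPLESS corepressors. Auxin joins an Aux/IAA protein to a receptor of the TIR1/AFB family, and the repressor is then destroyed. Many Aux/IAA genes are themselves ARF targets that auxin switches on quickly, so their transcripts are widely used as a readout of the auxin response.

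Promoter sequences are shown because the TGTCTC element, the classical ARF binding site, lies in front of some of the genes and not of others. The window of 250 bases before each annotated gene start was read from the RefSeq TAIR10.1 genome, and all 10 genes were found there. TGTCTC, on either strand, was present in IAA1, IAA5, IAA6 and IAA19, and in 10.9% of 27443 promoters of the same length. TGTCGG, a variant bound strongly by ARFs in vitro, was present in IAA1 and IAA5 and in 4.16% of those promoters. The G-box CACGTG, bound by light-regulated transcription factors, was present in IAA7 and IAA19 and in 6.49% of them. None of the 3 motifs overlapped another in these windows, and none was found in the windows of IAA2, IAA3, IAA14, IAA17 and IAA29. A match is a match of letters only. The 5 promoters below are a selection, with each motif match on either strand in capitals. Of these, IAA1, IAA5, IAA19 and IAA7 hold a motif and IAA14 holds none. The windows of IAA2, IAA3, IAA6, IAA17 and IAA29 are not shown.
IAA1 (chr4:8360746-8360995, plus strand): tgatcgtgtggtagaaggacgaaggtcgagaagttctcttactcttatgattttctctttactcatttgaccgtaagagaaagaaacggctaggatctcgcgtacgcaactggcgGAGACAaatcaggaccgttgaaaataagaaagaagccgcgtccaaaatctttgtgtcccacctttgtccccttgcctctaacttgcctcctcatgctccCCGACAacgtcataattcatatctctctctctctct
IAA5 (chr1:5366498-5366747, minus strand): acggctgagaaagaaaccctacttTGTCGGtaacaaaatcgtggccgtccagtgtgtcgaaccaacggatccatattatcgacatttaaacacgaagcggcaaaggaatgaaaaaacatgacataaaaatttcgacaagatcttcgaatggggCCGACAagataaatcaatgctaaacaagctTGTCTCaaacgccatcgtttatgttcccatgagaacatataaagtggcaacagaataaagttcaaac
IAA19 (chr3:5263751-5264000, plus strand): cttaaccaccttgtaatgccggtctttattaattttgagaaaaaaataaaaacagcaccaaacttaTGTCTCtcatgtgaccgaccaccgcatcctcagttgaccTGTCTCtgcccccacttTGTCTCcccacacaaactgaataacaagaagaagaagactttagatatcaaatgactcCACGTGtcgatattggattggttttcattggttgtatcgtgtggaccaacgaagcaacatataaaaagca
IAA7 (chr3:8194356-8194605, plus strand): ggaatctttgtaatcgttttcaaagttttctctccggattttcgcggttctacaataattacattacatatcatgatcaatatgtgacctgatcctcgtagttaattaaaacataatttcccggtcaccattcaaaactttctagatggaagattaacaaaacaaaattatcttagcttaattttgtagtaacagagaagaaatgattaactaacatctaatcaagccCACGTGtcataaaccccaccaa
IAA14 (chr4:8350264-8350513, minus strand): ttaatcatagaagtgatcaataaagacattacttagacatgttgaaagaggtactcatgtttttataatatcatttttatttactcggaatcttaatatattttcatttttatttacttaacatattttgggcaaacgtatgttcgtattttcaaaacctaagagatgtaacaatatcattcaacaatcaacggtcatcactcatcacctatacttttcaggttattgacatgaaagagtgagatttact
In IAA19 the 3 TGTCTC copies began 184, 145 and 128 bases before the start and the G-box 70 bases before it. In IAA1 the TGTCTC and TGTCGG matches lay on the opposite strand, 135 to 130 and 36 to 31 bases before the start. The IAA5 window held TGTCTC 67 bases and TGTCGG 226 bases before the start on the gene's own strand, and a second TGTCGG at 97 to 92 bases on the opposite strand. The IAA14 window held none of the 3 motifs.

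The labels were first checked on the induced constructs. Levels are given in CPM, gene counts scaled to a library total of 1000000. CALS3 averaged 5547, 5320, 4208 and 1598 CPM in icals3m with estradiol at 12, 24, 48 and 72 h. It averaged between 171 and 282 CPM in the 4 icals3m groups with DMSO. The libraries of Col-0 and PD-plug held 79.2 to 121 CPM. The mCherry sequence gave 77044 to 694617 counts per PD-plug library with estradiol, 138 to 3261 with DMSO, and 5 counts or fewer in Col-0. With estradiol it gave 574613 to 694617 counts at 24 h and 77044 to 99641 counts at 72 h. CALS3 and mCherry with estradiol were thus lowest at 72 h, and the bearing of this on the 72 h comparisons was not tested. Library totals lay between 33207020 and 55367880 counts, so that 3 counts were at most 0.0941 CPM in any library; this floor covers counting error only. PD-plug 48 h estradiol replicate 1 stood apart, with a total 1.37 times that in the second deposited matrix (the STAR matrix) against 1.9 to 2.07 times in the others. The leaf label was checked on markers. RBCS1A, a small subunit of Rubisco, had a median of 13783 CPM. The root genes EXP7 and COBL9 and the meristem gene STM were at 0 in all 72 libraries. The other root genes listed were PRP3, at 0 in 42 libraries, and PYK10, with a median of 2.43 CPM and up to 12.3 CPM. Of the other genes of meristem and dividing cells, KNAT1 was at 0 in 63 libraries. CYCB1;1 and CDKB2;1 had medians of 0.532 and 1.27 CPM. PDF1, an epidermal gene of young tissue, was near 0, with a median of 0.177 CPM.

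Level differed widely among the 10 genes. Per kilobase of the longest annotated transcript, IAA7 was highest with a median of 44.7 CPM per kb over the 72 libraries, followed by IAA2 with 41.4 CPM per kb. IAA7 and IAA2 did not hold a fixed order: all replicates of IAA7 lay above those of IAA2 in 8 groups and below in 7, and they overlapped in 9. IAA1 had a median of 20.5 CPM per kb and IAA3 one of 19.9 CPM per kb, again with no fixed order (above in 7 groups, below in 8, overlapping in 9). IAA17 had 8.14 CPM per kb and IAA14, the repressor named for its part in lateral root formation, had 5.20 CPM per kb. IAA17 lay above IAA14 in 20 groups and overlapped it in 4. IAA5 with 1.62 CPM per kb and IAA19 with 1.29 CPM per kb overlapped in 16 groups. IAA29, a gene of shade and warmth responses, had 0.439 CPM per kb and lay below IAA19 in 15 groups.

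IAA6 was close to the detection limit. It was at 0 counts in 39 of 72 libraries and reached 10 counts in 10 libraries, all of them icals3m. It was above 0 in 17 of 24 icals3m libraries, in 8 of 24 Col-0 libraries and in 8 of 24 PD-plug libraries. It was 0.551, 0.229 and 1.19 CPM in the icals3m 24 h estradiol libraries and 0.173, 0.858 and 0.565 CPM in those of 72 h, and icals3m libraries with DMSO reached 0.496 CPM. All 10 genes passed the filter on low counts, but IAA6 passed through its icals3m libraries, so it is left out of the medians of fold changes below, and no fold is given for it.

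**Figure D1:**
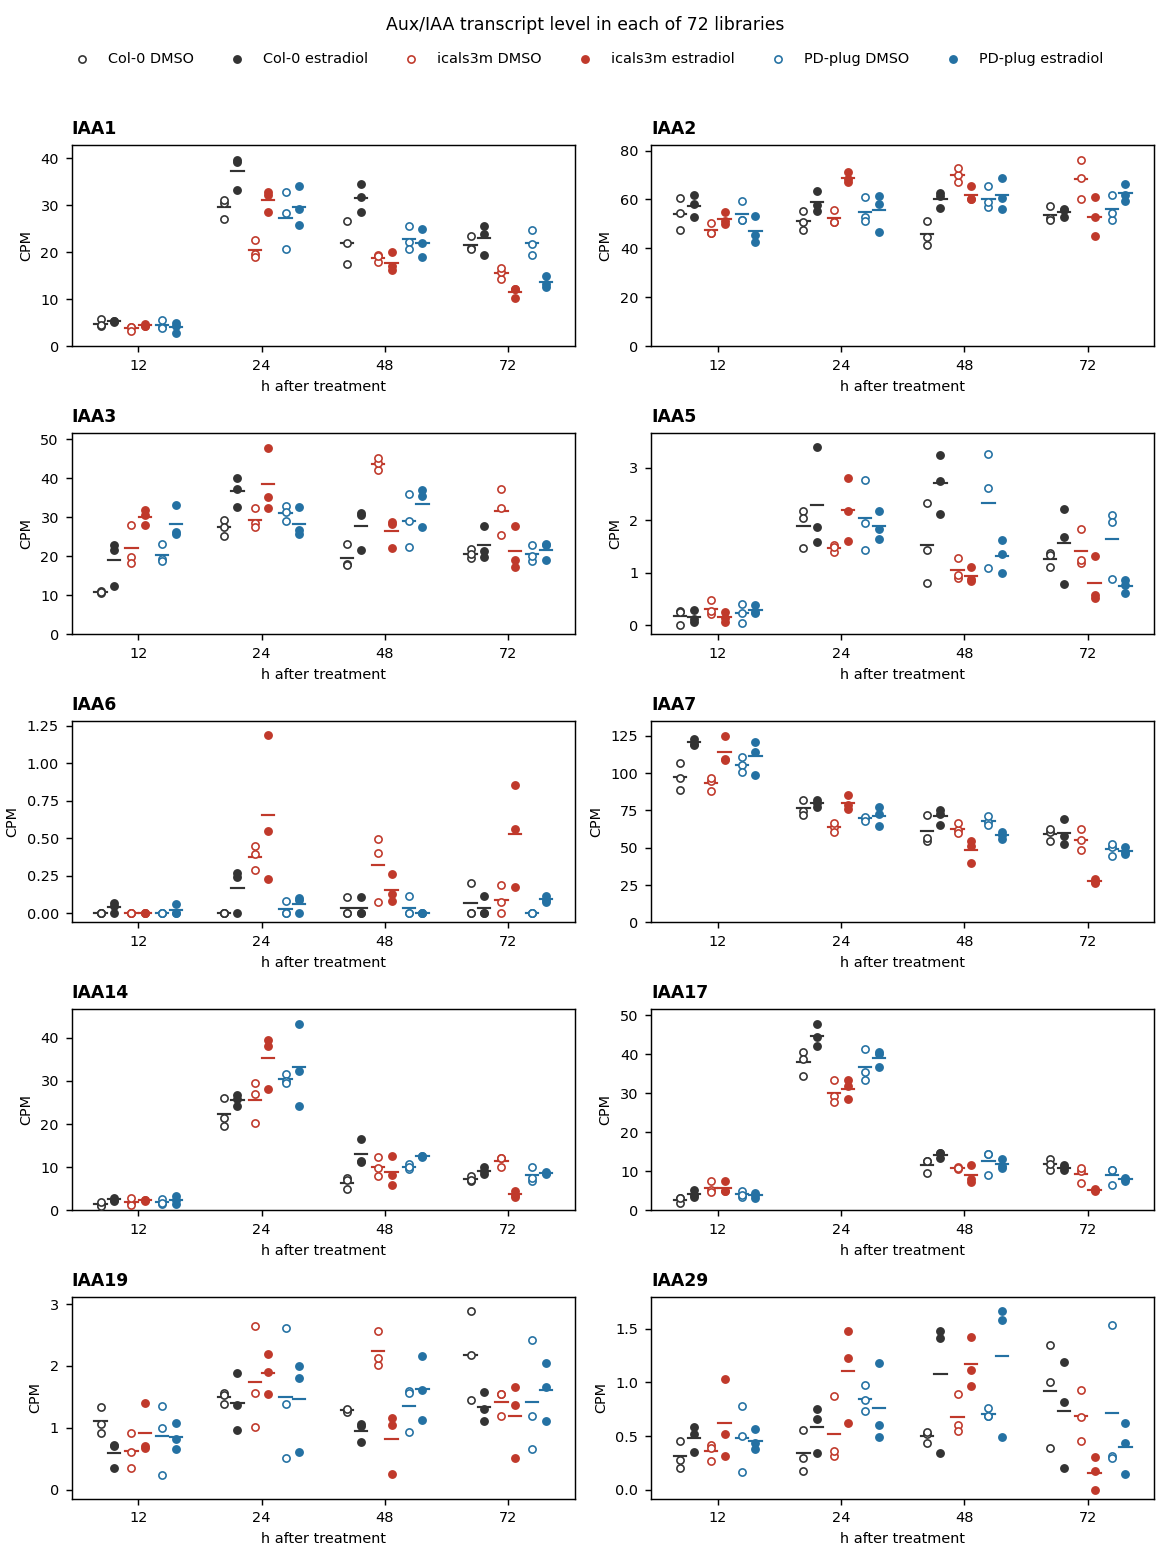
Level of each Aux/IAA gene in CPM (linear axis, own scale per gene) in all 72 libraries by hours after treatment. Each point is a library, open for DMSO and filled for estradiol, and each short bar is a group mean; IAA1, IAA5, IAA14 and IAA17 are low at 12 h in every genotype, and IAA7 in icals3m with estradiol falls to 26.6 to 28.9 CPM at 72 h.

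Several members differed more by time than by genotype or treatment. Time alone accounted for 91.3% of the variance of log2 CPM over 72 libraries for IAA1, 90.5% for IAA17, 90.3% for IAA14, 77.1% for IAA5 and 73.9% for IAA7, and for 14.7% of that of IAA2. In the 12 h libraries of Col-0 with DMSO, IAA14 was 1.17, 0.936 and 2.06 CPM, and in the 24 h libraries it was 21.3, 19.5 and 26.0 CPM. IAA17, a repressor whose stabilised form blocks auxin responses, rose from 3.25, 1.84 and 3.169 CPM to 34.4, 40.5 and 38.9 CPM between the same times. The 2 times did not overlap for either gene. The quasi-likelihood test of edgeR was used throughout, with p-values adjusted by the Benjamini-Hochberg method over 21241 genes and called at 0.05. By that test 5 of the 10 genes were higher at 24 h than at 12 h (31.3% of all genes tested were) and 1 was lower (31.5% were). The log2 fold change was 3.99 for IAA14 (SE 0.27, adjusted p 8.68e-19), 3.79 for IAA17 (SE 0.21, adjusted p 2.10e-23), 3.34 for IAA5 (SE 0.56, adjusted p 5.56e-07), 2.62 for IAA1 (SE 0.16, adjusted p 1.91e-22) and 1.35 for IAA3 (SE 0.19, adjusted p 1.63e-08). IAA7 fell by 0.35 on the log2 scale (SE 0.094, adjusted p 8.34e-04). In the STAR matrix the IAA7 fall did not pass (-0.32, adjusted p 0.326). Over the 6 combinations of genotype and treatment, all 24 h libraries lay above all 12 h libraries in 6 for IAA1, IAA5, IAA14 and IAA17 and in 4 for IAA3, and below in 6 for IAA7. For IAA3 the ratio of the 24 h to the 12 h mean ran from 0.999 to 2.54. The clock time of collection is not given in the labels, so hours after treatment and time of day cannot be told apart.

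From 24 to 48 h in Col-0 with DMSO, 5 members were lower (13.5% of all genes were) and 0 were higher (13.6% were). The log2 fold change by edgeR was -1.79 for IAA14 (SE 0.24, adjusted p 3.13e-08) and -1.70 for IAA17 (SE 0.19, adjusted p 6.93e-11). IAA3 fell by 0.48 (SE 0.19, adjusted p 0.0460), IAA1 by 0.42 (SE 0.15, adjusted p 0.0230) and IAA7 by 0.32 (SE 0.094, adjusted p 0.00673). These last 3 calls rested on single libraries. The IAA3 call was lost when 24 h replicate 1, 2 or 3 or 48 h replicate 1 or 3 was left out (edgeR adjusted p 0.0501 to 0.149). The IAA1 call was lost without 24 h replicate 1 or 3 or 48 h replicate 1 or 3 (adjusted p 0.0555 to 0.208), and the IAA7 call without 24 h replicate 3 or 48 h replicate 1 or 3 (adjusted p 0.0510 to 0.0802). None of the 3 passed in the STAR matrix (adjusted p 0.0655, 0.0507 and 0.228 in the same order). From 48 to 72 h, 0 of the 10 passed the threshold in edgeR or in DESeq2, 1 had an unadjusted p under 0.05, and 12.8% of all genes passed.

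The members did not share 1 time course. Over the 24 group means of log2 CPM, Pearson's r was 0.96 between IAA1 and IAA5, 0.95 between IAA14 and IAA17 and 0.91 between IAA1 and IAA14. IAA7 ran the other way, with r of -0.53 against IAA5 and -0.51 against IAA1. These are descriptions over 24 means that share libraries, times and depth. Of the 10 genes, 6 stand in the genome as head-to-head pairs in TAIR10.1 with 1 annotated locus between the partners: IAA1 and IAA14 on chromosome 4 (10.73 kb apart), IAA2 and IAA7 on chromosome 3 (12.51 kb) and IAA3 and IAA17 on chromosome 1 (6.39 kb). Between these neighbours r was 0.91 for IAA1 and IAA14, 0.61 for IAA3 and IAA17 and -0.24 for IAA2 and IAA7.

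The effect of inducing each construct on these genes was followed by comparing estradiol with DMSO within a line. That effect was then set against the effect in Col-0. Closure of plasmodesmata itself is not measured in these libraries. In icals3m the calls were upward at 12 h and 24 h and downward at 48 h and 72 h. Whether the estradiol effect changed between times was not tested. At 12 h 1 member was higher (8.46% of all genes were) and 0 were lower (8.7% were). At 24 h 3 were higher (2.74% were) and 0 lower (3.73% were). At 48 h 3 were lower (9.06% were) and 0 higher (9.25% were), and at 72 h 7 were lower (11.1% were) and 0 higher (10.4% were). At 72 h the median log2 fold change of the 9 members other than IAA6 was -0.80, beside -0.0048 for all genes tested. In Col-0 at 72 h that median was 0.028 and in PD-plug it was -0.038.

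**Figure D2:**
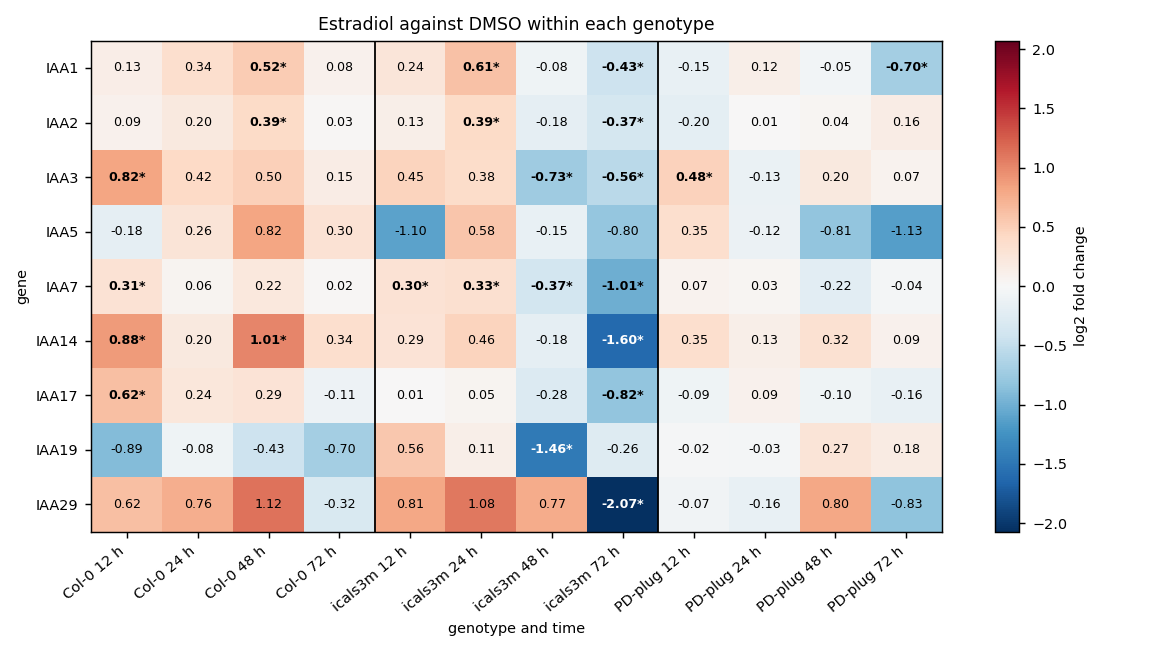
Log2 fold change of estradiol against DMSO for 9 Aux/IAA genes (IAA6 is left out for its counts near 0) in each genotype and time, by edgeR. An asterisk marks an adjusted p under 0.05. The icals3m column holds values up to 1.08 at 24 h and down to -2.07 at 72 h, where 7 are marked.

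IAA14 had the largest of the called differences in effect between lines. In icals3m at 72 h it was 3.22, 3.604 and 4.39 CPM with estradiol and 10.0, 12.1 and 12.1 CPM with DMSO. In Col-0 at 72 h it was 10.1, 8.43 and 9.15 CPM with estradiol and 6.86, 7.96 and 7.01 CPM with DMSO, and in PD-plug 8.74, 8.41 and 8.82 against 6.85, 7.59 and 9.95 CPM. Of the libraries at 72 h, the 3 of icals3m with estradiol were the lowest, and they did not overlap their DMSO controls. The level was 3.04-fold lower with estradiol in icals3m (log2 fold change -1.60, SE 0.25, edgeR adjusted p 1.43e-06). The estradiol effect in icals3m minus that in Col-0 was -1.94 (SE 0.35, adjusted p 6.22e-05), and minus that in PD-plug -1.70 (SE 0.34, adjusted p 8.78e-04).

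IAA7, a repressor whose stabilised form gives dwarf, auxin-insensitive plants, was like IAA14 called at 72 h against both the Col-0 and the PD-plug effect. In icals3m at 72 h it was 26.6, 28.9 and 27.3 CPM with estradiol and 48.6, 62.4 and 55.5 CPM with DMSO. In Col-0 it was 69.6, 57.6 and 52.6 CPM with estradiol and 54.6, 60.6 and 62.4 CPM with DMSO, and in PD-plug 47.5, 45.6 and 50.8 against 50.6, 44.6 and 52.5 CPM. The icals3m estradiol libraries were the lowest of all 72. The log2 fold change was -1.01 within icals3m (SE 0.096, edgeR adjusted p 3.62e-12), -1.03 against the Col-0 effect (SE 0.13, adjusted p 1.59e-07) and -0.97 against the PD-plug effect (SE 0.13, adjusted p 1.23e-06). In the STAR matrix the fall within icals3m was -0.94 (adjusted p 0.0109), but the differences from Col-0 (-0.78, adjusted p 0.267) and from PD-plug (-0.97, adjusted p 0.204) did not pass the threshold.

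Of the 7 members lower in icals3m at 72 h, IAA17 was 5.11, 5.26 and 5.52 CPM with estradiol and 10.0, 10.8 and 7.13 CPM with DMSO, which did not overlap. Its log2 fold change was -0.82 (SE 0.19, edgeR adjusted p 9.94e-04). IAA1 fell by 0.43 (SE 0.15, adjusted p 0.0262), IAA2 by 0.37 (SE 0.098, adjusted p 0.00350) and IAA3 by 0.56 (SE 0.18, adjusted p 0.0209). IAA29 fell by 2.07 (SE 0.71, adjusted p 0.0288) from low levels, with 0.173, 0 and 0.300 CPM under estradiol and 0.451, 0.926 and 0.674 CPM under DMSO. IAA5 (-0.80), IAA19 (-0.26) and IAA6 did not pass. Leaving out 1 library ended 4 of these calls: IAA1 without estradiol replicate 1 or DMSO replicate 2 or 3 (adjusted p 0.0651 to 0.149), IAA2 without estradiol replicate 1 or DMSO replicate 3 (0.0559 and 0.0778), IAA3 without estradiol replicate 1 or 2 or DMSO replicate 2 or 3 (0.0585 to 0.144), and IAA29 without the same 4 libraries (0.0510 to 0.164). The STAR matrix did not call IAA1, IAA17 (-0.58, adjusted p 0.11) or IAA29.

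Set against the Col-0 effect at 72 h, 2 of 10 members were lower, IAA7 and IAA14 (6.29% of all genes were lower), and 0 were higher (4.98% were). IAA2 missed the threshold narrowly, with a difference of -0.40 (95% interval -0.67 to -0.12, adjusted p 0.0516). IAA3 with -0.72 (adjusted p 0.0662), IAA17 with -0.71 (adjusted p 0.0785) and IAA1 with -0.52 (adjusted p 0.0989) also had intervals below 0 before adjustment. Against the PD-plug effect at 72 h, 3 of 10 were lower (3.11% of all genes were) and 0 were higher (2.25% were). The 3 were IAA14, IAA7 and IAA2. IAA2 was 45.2, 52.8 and 60.9 CPM with estradiol and 68.6, 60.3 and 76.3 CPM with DMSO in icals3m, which overlapped, and 61.7, 59.5 and 66.5 against 51.6, 54.5 and 62.0 CPM in PD-plug. Its difference was -0.53 (SE 0.14, edgeR adjusted p 0.0123), and was lost without icals3m 72 h estradiol replicate 1 (-0.43, adjusted p 0.0865) or DMSO replicate 3 (-0.44, adjusted p 0.0636). These comparisons share the icals3m libraries and are not independent of each other.

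**Figure D3:**
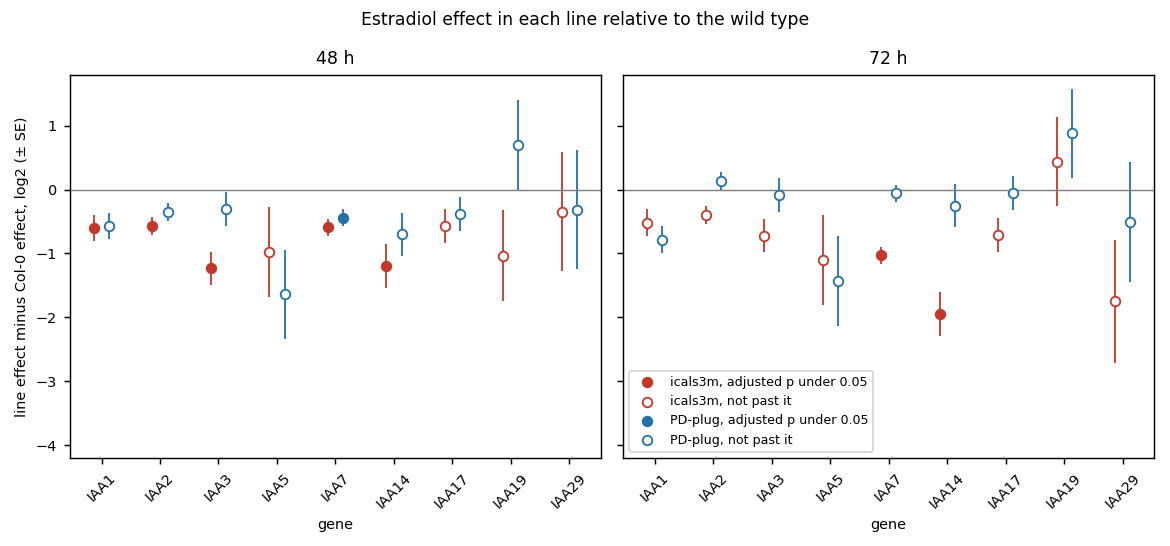
Estradiol effect in icals3m (red) and PD-plug (blue) minus the Col-0 effect at 48 h (left) and 72 h (right) for 9 Aux/IAA genes, log2 scale with standard errors; filled points have an edgeR adjusted p under 0.05. At 48 h 5 icals3m points and 1 PD-plug point are filled, all below 0; at 72 h 2 icals3m points are, IAA7 at -1.03 and IAA14 at -1.94.

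At 48 h, set against the Col-0 effect, 5 of 10 members were lower in icals3m (7.11% of all genes were) and 0 were higher (6.26% were). At both 48 h and 72 h 6 members had an unadjusted p under 0.05, and whether the 2 times differ was not tested. The share of all genes at that unadjusted level was not computed, so these 2 counts have no background. IAA3, a repressor that in roots restrains auxin signalling under cytokinin, was 28.7, 28.4 and 22.0 CPM with estradiol and 42.1, 43.8 and 45.3 CPM with DMSO in icals3m. In Col-0 it was 30.5, 21.5 and 31.1 CPM with estradiol and 17.9, 23.0 and 17.8 CPM with DMSO, and in PD-plug 27.6, 35.3 and 37.1 against 22.3, 29.1 and 35.8 CPM. In icals3m the treatments did not overlap, and the DMSO libraries were the high ones. The difference was -1.23 against Col-0 (SE 0.26, edgeR adjusted p 7.28e-04) and -0.93 against PD-plug (SE 0.26, adjusted p 0.0232). IAA3 was the 1 member lower against the PD-plug effect at 48 h (2.46% of all genes were lower and 2.69% higher). That last call was lost without icals3m estradiol replicate 3 (adjusted p 0.0974), PD-plug estradiol replicate 2 or 3 (0.0520 and 0.0695) or PD-plug DMSO replicate 1 (0.100), and was kept without PD-plug estradiol replicate 1, the library that stood apart (-1.05, adjusted p 0.0156).

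For IAA1, IAA2 and IAA14 the 48 h difference came with a higher level in Col-0 under estradiol rather than with a call within icals3m. IAA2 was 56.5, 62.5 and 61.3 CPM with estradiol and 44.7, 51.4 and 41.2 CPM with DMSO in Col-0, and 65.4, 60.1 and 60.0 against 67.3, 69.8 and 73.0 CPM in icals3m. Its difference was -0.57 (SE 0.14, edgeR adjusted p 0.00262). IAA14 was 11.4, 11.2 and 16.5 CPM with estradiol and 4.85, 7.50 and 6.97 CPM with DMSO in Col-0, and 12.5, 8.23 and 5.89 against 9.81, 12.4 and 7.98 CPM in icals3m, where the treatments overlapped. Its difference was -1.20 (SE 0.34, adjusted p 0.0116). IAA1, a fast auxin-induced gene, was 28.7, 34.5 and 31.8 CPM with estradiol and 17.6, 26.7 and 21.9 CPM with DMSO in Col-0, and 20.1, 16.3 and 17.0 against 17.9, 19.4 and 19.2 CPM in icals3m. Its difference was -0.60 (SE 0.21, adjusted p 0.0402). The IAA14 call was lost without Col-0 estradiol replicate 3, Col-0 DMSO replicate 1, icals3m estradiol replicate 3 or icals3m DMSO replicate 2 (adjusted p 0.0528 to 0.0760). The IAA1 call was lost without replicate 2 or 3 of Col-0 estradiol, 1 or 3 of Col-0 DMSO, 2 or 3 of icals3m estradiol, or 2 or 3 of icals3m DMSO (adjusted p 0.0662 to 0.166), and in the STAR matrix (-0.50, adjusted p 0.222).

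IAA7 at 48 h was 54.4, 51.1 and 39.9 CPM with estradiol and 61.9, 66.7 and 59.8 CPM with DMSO in icals3m. In Col-0 it was 65.2, 75.6 and 72.6 against 54.6, 71.9 and 56.8 CPM, which overlapped. Set against Col-0 its difference was -0.59 (edgeR, SE 0.13, adjusted p 0.00119; adjusted p 0.308 in the STAR matrix). The 3 members lower within icals3m at 48 h were IAA3, IAA7 and IAA19. IAA3 fell by 0.73 on the log2 scale (SE 0.18, adjusted p 0.00290), IAA7 by 0.37 (SE 0.094, adjusted p 0.00267) and IAA19 by 1.46 (SE 0.50, adjusted p 0.0330). IAA19, a repressor of bending growth in seedlings, was 1.05, 1.16 and 0.247 CPM with estradiol and 2.01, 2.57 and 2.13 CPM with DMSO. The IAA19 call was lost without estradiol replicate 3 (-0.996, adjusted p 0.224) or DMSO replicate 2 or 3 (adjusted p 0.0941 and 0.0580). The IAA7 call was lost without estradiol replicate 3 (-0.23, adjusted p 0.117). Neither was called in the STAR matrix (IAA7 -0.31, adjusted p 0.561; IAA19 -1.20, adjusted p 0.274), and IAA19 was not called from the 6 libraries alone (adjusted p 0.0581).

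Cell type markers moved with these results, and their part in them was not tested. The summed level of 3 mesophyll markers (RBCS1A, LHCB2.1 and CA1) was 16484 to 18195 CPM with estradiol and 22883 to 26883 CPM with DMSO in icals3m at 48 h, and 15529 to 16847 against 22465 to 24327 CPM at 72 h. Of the 3, RBCS1A and CA1 were lower at both times, and LHCB2.1 was higher at 48 h. The 3 phloem markers summed to 243 to 257 against 308 to 326 CPM at 72 h, and the 3 epidermis markers to 114 to 131 against 153 to 164 CPM. The 3 guard cell markers (37.9 to 46.6 against 48.2 to 51.4 CPM) and the 3 xylem markers (9.30 to 13.6 against 14.1 to 15.8 CPM) were also lower in each estradiol library at 72 h. In icals3m at 48 h the phloem sum was 340 to 381 with estradiol against 400 to 409 CPM with DMSO. The epidermis sum was then 119 to 125 against 128 to 135 CPM and the xylem sum 8.48 to 10.4 against 10.7 to 12.3 CPM. The guard cell sums overlapped at 48 h. In PD-plug at 48 h the mesophyll sum was 18340 to 22450 CPM with estradiol and 26406 to 26937 CPM with DMSO. It was 10797 to 13013 against 14621 to 16020 CPM at 12 h and 21455 to 22387 against 22862 to 26729 CPM at 72 h. At 24 h the PD-plug treatments overlapped in this sum. In whole leaves, fewer cells of a type and less RNA per cell cannot be told apart.

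PD-plug gave few calls among the 10 genes. Within PD-plug at 12 h 1 member was higher (12.6% of all genes were) and 0 were lower (14.5% were). At 72 h 1 was lower (1.25% were) and 0 were higher (1.39% were). At 24 h and 48 h, 0 members passed in edgeR or in DESeq2 (0.49% and 13.3% of all genes did), with 0 and 1 members at an unadjusted p under 0.05. The member lower at 72 h was IAA1, with 14.9, 13.2 and 12.6 CPM under estradiol and 19.4, 24.8 and 21.9 CPM under DMSO, which did not overlap. Its log2 fold change was -0.70 (SE 0.15, edgeR adjusted p 0.00273). Its difference from the Col-0 effect was -0.78 (95% interval -1.20 to -0.37) with an unadjusted p of 3.71e-04 and an adjusted p of 0.125. IAA5, a small auxin-induced member, was 0.773, 0.859 and 0.617 CPM with estradiol and 2.098, 1.96 and 0.877 CPM with DMSO at 72 h, which did not overlap, and the fold change did not pass (log2 -1.13, SE 0.50, adjusted p 0.252). IAA3 at 12 h was 0.48 higher on the log2 scale (SE 0.18, adjusted p 0.0461), a call lost without estradiol replicate 1 or 3 or DMSO replicate 1 or 3 (adjusted p 0.0549 to 0.239) and in the STAR matrix (0.123).

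Against the Col-0 effect, 1 PD-plug difference passed at 48 h (3.3% of all genes were lower and 2.26% higher), and 0 passed at 12, 24 and 72 h in edgeR or DESeq2 (8.3%, 0.033% and 0.0942% of all genes passed), with 2, 1 and 3 members at an unadjusted p under 0.05. The one at 48 h was IAA7, with 58.6, 60.5 and 56.1 CPM under estradiol and 67.0, 65.4 and 71.4 CPM under DMSO in PD-plug. Its difference was -0.44 (SE 0.13, edgeR adjusted p 0.0358). It was lost without PD-plug estradiol replicate 1, the library that stood apart (adjusted p 0.0756), or replicate 3, without PD-plug DMSO replicate 1 or 3, Col-0 estradiol replicate 2 or 3, or Col-0 DMSO replicate 1 or 3 (adjusted p 0.0533 to 0.153 over the 8 fits), and in the STAR matrix (adjusted p 0.641). At 72 h the intervals of the PD-plug differences ran from -0.32 to 0.21 for IAA7, from -0.93 to 0.43 for IAA14 and from -0.61 to 0.45 for IAA3, so changes of those sizes remain possible.

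In Col-0, which carries no construct, 4 of 10 members were higher with estradiol at 12 h (21.9% of all genes were) and 0 were lower (16.7% were). Much of the transcriptome passed in this comparison, and the members' count is not set apart from it. IAA3 was 12.4, 21.5 and 23.0 CPM with estradiol and 10.5, 11.1 and 10.7 CPM with DMSO, 1.76-fold higher (log2 fold change 0.82, SE 0.19, edgeR adjusted p 3.90e-04). IAA14 was 0.88 higher (SE 0.27, adjusted p 0.00859), IAA17 0.62 higher (SE 0.20, adjusted p 0.0119) and IAA7 0.31 higher (SE 0.093, adjusted p 0.00644) on the log2 scale. The IAA14 call was lost without DMSO replicate 2 (adjusted p 0.0889), the IAA17 call without that library or estradiol replicate 1 (adjusted p 0.157 and 0.120) and the IAA7 call without DMSO replicate 1 (adjusted p 0.0579). The STAR matrix called IAA3 alone among these 4. At 12 h in Col-0 the epidermis marker sum was 160 to 178 CPM with estradiol and 98.9 to 127 CPM with DMSO, the mesophyll sum 15745 to 17308 against 13881 to 14995 CPM, and the guard cell sum 53.3 to 57.6 against 44.8 to 51.8 CPM. Their part in the 12 h values was not tested.

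At 48 h in Col-0, 3 members were higher (2.48% of all genes were) and 0 were lower (4.19% were). IAA14 was 2.02-fold higher (log2 fold change 1.01, SE 0.24, edgeR adjusted p 0.00677), IAA1 1.43-fold higher (0.52, SE 0.15, adjusted p 0.0193) and IAA2 1.31-fold higher (0.39, SE 0.098, adjusted p 0.00906). These calls depended on single libraries. IAA1 was lost without estradiol replicate 2 or 3 or DMSO replicate 1 or 3 (adjusted p 0.0592 to 0.216), IAA2 without DMSO replicate 1 or 3 (0.0611 and 0.114), and IAA14 without estradiol replicate 3 or DMSO replicate 1 (0.0708 and 0.0855). The IAA1 call was also lost in the STAR matrix (adjusted p 0.136). At 24 h, 0 members passed in edgeR or DESeq2 (0.984% of all genes did), with 4 at an unadjusted p under 0.05. The share of all genes at that unadjusted level was not computed. The median log2 fold change without IAA6 was 0.24, beside 0.0088 for all genes tested. At 72 h, 0 passed in either tool or at an unadjusted p under 0.05 (0.0141% of all genes passed).

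Early after induction the calls in icals3m were upward. At 24 h IAA1 was 28.6, 32.8 and 32.2 CPM with estradiol and 22.7, 19.6 and 19.1 CPM with DMSO, which did not overlap, and 1.52-fold higher (log2 fold change 0.61, SE 0.15, edgeR adjusted p 0.00604). IAA2 was 0.39 higher (SE 0.098, adjusted p 0.00883) and IAA7 0.33 higher (SE 0.094, adjusted p 0.0217) on the log2 scale. At 12 h IAA7 alone was higher (0.30, SE 0.093, adjusted p 0.0188). Without DMSO replicate 3 the 24 h calls of IAA1 and IAA2 were lost (adjusted p 0.0542 and 0.0590). The IAA7 calls were lost without estradiol replicate 3 or DMSO replicate 1 or 3 at 24 h (adjusted p 0.0517 to 0.133) and without estradiol replicate 3 or DMSO replicate 2 at 12 h (0.140 and 0.101). In the STAR matrix IAA7 gave 0.0052 at 24 h (adjusted p 1) and 0.22 at 12 h (adjusted p 0.766), so neither call was made there. Against the Col-0 effect, 0 members passed at 12 h or 24 h in edgeR or DESeq2 (3.16% and 0.259% of all genes passed), with 2 and 1 at an unadjusted p under 0.05. Against the PD-plug effect, 0 passed at 12 h or 24 h in either tool (1.19% and 0.358% of all genes passed), with 1 and 3 at an unadjusted p under 0.05.

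The lines differed from Col-0 in these genes without estradiol as well. Averaged over the 4 times in DMSO, icals3m had 3 members higher than Col-0 (9.07% of all genes were) and 1 lower (10.1% were). In log2 units by edgeR, IAA3 was 0.73 higher (SE 0.093, adjusted p 2.28e-08), IAA14 0.49 higher (SE 0.12, adjusted p 0.00266) and IAA2 0.20 higher (SE 0.049, adjusted p 0.00141), and IAA1 fell by 0.39 (SE 0.075, adjusted p 4.78e-05). PD-plug had 2 members higher (3.56% of all genes were) and 0 lower (2.61% were): IAA3 by 0.42 (SE 0.093, adjusted p 0.00241) and IAA14 by 0.43 (SE 0.12, adjusted p 0.0259). The PD-plug call of IAA14 was lost without Col-0 12 h replicate 2, Col-0 48 h replicate 1, PD-plug 12 h replicate 1 or PD-plug 72 h replicate 3 (adjusted p 0.0630 to 0.0881) and in the STAR matrix (0.0625). Without estradiol, CALS3 averaged 171 to 282 CPM in icals3m, above the 79.2 to 121 CPM of the Col-0 and PD-plug libraries, and PD-plug DMSO libraries held 138 to 3261 mCherry counts. Both lines are compared here with the same 12 Col-0 libraries.

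The low members IAA5, IAA19 and IAA29 varied more between replicates, with standard errors of the within-genotype fold changes of 0.49 to 0.71 on the log2 scale, where IAA7 had 0.093 to 0.096. IAA29 stood on opposite sides of its controls at the last 2 times in icals3m. At 48 h it was 1.11, 1.43 and 0.967 CPM with estradiol and 0.604, 0.891 and 0.545 CPM with DMSO, above and without overlap, but did not pass the test (log2 fold change 0.77), and at 72 h it lay below without overlap, as given above. IAA5 in icals3m at 24 h was 2.80, 1.60 and 2.17 CPM with estradiol and 1.402, 1.53 and 1.48 CPM with DMSO, also above without overlap and not past the test (0.58, SE 0.49, edgeR adjusted p 0.559). IAA19 in Col-0 at 12 h was 0.347, 0.728 and 0.701 CPM with estradiol and 0.914, 1.06 and 1.34 CPM with DMSO, below without overlap (-0.89, SE 0.50, adjusted p 0.162). IAA5 and IAA19 both carry TGTCTC in the windows printed above, and their 24 h levels differed from their 12 h levels to unlike extents: in Col-0 with DMSO, IAA5 went from 0, 0.272 and 0.261 CPM to 2.17, 1.47 and 2.05 CPM, and IAA19 from 0.914, 1.06 and 1.34 CPM to 1.56, 1.54 and 1.38 CPM. IAA14 and IAA17, with none of the motifs in their windows, had log2 fold changes of 3.99 and 3.79 between these times. Any part of the motifs in these changes was not tested.

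The genes that act around the repressors were followed from lists of the pathway. In icals3m at 72 h, where 11.1% of all genes were lower and 10.4% higher, 5 of 16 other Aux/IAA genes tested were lower and 0 higher, with a median log2 fold change of -0.42. IAA8, an abundant member, was 68.7 to 86.4 CPM with estradiol and 137 to 179 CPM with DMSO, a log2 fold change of -0.96 in edgeR (SE 0.080, adjusted p 5.44e-14). Of 6 auxin receptors, 2 were lower (11.1% of all genes) and 0 higher (10.4%). The receptor TIR1 was 60.9 ± 1.58 CPM with estradiol and 95.7 ± 3.5 CPM with DMSO (SD, n = 3), and its effect differed from that in PD-plug by -0.62 (SE 0.10, adjusted p 2.63e-05). AFB1, a receptor of fast root responses, differed from the Col-0 effect by -1.22 at 48 h (SE 0.25, adjusted p 4.02e-04).

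Of 5 activating ARFs, 2 were lower in icals3m at 72 h, and of 10 other ARFs 3 were, with 0 higher in either list, beside 11.1% of all genes lower and 10.4% higher. ARF5, the activator of embryo and vein patterning, was 5.70 to 7.10 CPM with estradiol and 9.89 to 11.1 CPM with DMSO at 48 h, a log2 fold change of -0.69 in edgeR (SE 0.16, adjusted p 0.00121). ARF11 fell by 0.58 at 48 h (SE 0.15, adjusted p 0.00246). Of 5 TOPLESS corepressors, 2 were higher (10.4% of all genes) and 0 lower (11.1%) at 72 h. TPR3 was 21.4 to 30.7 CPM with estradiol and 11.1 to 12.7 CPM with DMSO, 2.14-fold higher (log2 fold change 1.10, SE 0.13, adjusted p 2.28e-09). Against the Col-0 effect at 72 h its difference was 1.03 (SE 0.18, adjusted p 5.78e-05).

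Of 13 auxin transport genes tested, 7 were lower (11.1% of all genes) and 0 higher (10.4%) at 72 h in icals3m, with a median log2 fold change of -0.48. PIN3, an efflux carrier, was 50.4 to 58.6 CPM with estradiol and 94.8 to 118 CPM with DMSO, a log2 fold change of -0.97 in edgeR (SE 0.10, adjusted p 9.37e-11). Its effect differed from that in PD-plug by -1.01 (SE 0.14, adjusted p 2.64e-06), and PIN4, another efflux carrier, differed from the Col-0 effect by -1.14 at 48 h (SE 0.16, adjusted p 7.26e-07). Of 6 auxin synthesis genes tested, 0 passed in edgeR at 72 h, with 2 at an unadjusted p under 0.05. Of 8 genes of auxin conjugation and oxidation, 1 was lower (11.1% of all genes), the conjugating enzyme GH3.6 (0 to 0.260 CPM with estradiol against 0.526 to 1.11 CPM with DMSO), which was chosen after its values were seen. DAO1, an auxin oxidase, had a higher effect in icals3m than in Col-0 at 48 h by 2.07 (SE 0.36, adjusted p 4.67e-05), with 8.17 to 12.0 against 6.19 to 8.05 CPM in icals3m and 4.30 to 6.11 against 9.99 to 16.6 CPM in Col-0. Of 7 light and growth regulators, 1 was higher (10.4% of all genes) and 1 lower (11.1%); the lower was PIF7, a transcription factor of shade responses, which fell by 0.49 (SE 0.11, adjusted p 3.26e-04). In PD-plug at 72 h, where 1.25% of all genes were lower and 1.39% higher, these 9 lists together gave 2 calls. Both were lower and both were among the other ARFs.

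**Figure D4:**
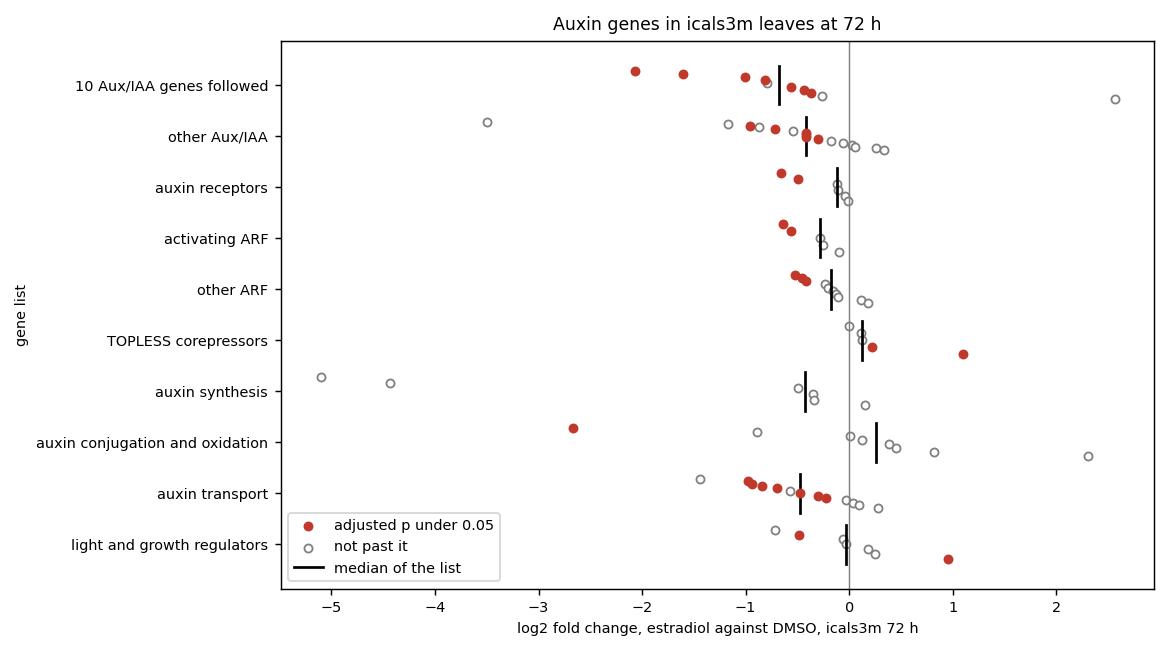
Log2 fold change of estradiol against DMSO in icals3m at 72 h for the genes of each list that were tested, by edgeR. Red points have an adjusted p under 0.05, open points do not, and black bars are list medians; the 10 Aux/IAA genes have 7 red points below 0, auxin transport has 7, and TOPLESS corepressors have 2 above 0.

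The genes most like the members were found by correlating each gene's 24 group means with the mean of the members' standardised means. Among 17293 other genes with a mean of at least 1 CPM, the 5 highest were AT1G56720 (Pearson's r 0.932), AT3G20820 (0.931), AT2G32880 (0.928), PAP3 (AT1G14700, 0.928) and XYL1 (AT1G68560, 0.927). None of these 5 is in the auxin lists. XYL1 encodes an alpha-xylosidase of the cell wall and PAP3 a purple acid phosphatase. The members' mean profile was lowest in Col-0 at 12 h with DMSO (-1.16 standard units) and highest in icals3m at 24 h with estradiol (1.29). It was -0.75 in icals3m at 72 h with estradiol against 0.33 with DMSO. The profile, and so the ranking above, includes IAA6, which was close to the detection limit. The highest group mean of IAA6, 0.656 CPM, was also in icals3m at 24 h with estradiol. A profile without IAA6 was not tested.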

How the data were processed

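The deposited files are 2 whole-series matrices of expected counts per gene and library, per the file headers; the values are whole numbers already, so rounding changed nothing. The submitters' processing notes name FastQC 0.11.8, Trim Galore 0.5.0, cutadapt 1.7, HISAT2 2.1.0, STAR 2.5, SAMtools 1.4.1, StringTie 1.3.3 and the build TAIR10, without saying which made which matrix; the counting strand is not given in the sources used here. The value 4 fills 40727 cells of the main matrix against 8585 for 3 and 10399 for 5, so a count was not read as 1 fragment. Coordinates and promoters come from RefSeq TAIR10.1.

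Counts were fitted with R 4.3.3, edgeR 4.0.16 and limma 3.58.1: filterByExpr (minimum count 10, total 15), TMM scaling, 24 group means over 72 libraries, 48 residual degrees of freedom, glmQLFTest, and Benjamini-Hochberg adjustment over 21241 genes in each of 29 comparisons at a threshold of 0.05. The biological coefficient of variation was 0.167. Standard errors come from the F statistic, and intervals are 95% before adjustment. Shares of all genes are those past the adjusted threshold. None was computed at an unadjusted p under 0.05, so counts of members at that level have no background. CPM uses TMM-scaled totals, and log2 CPM a prior count of 2. The code was tested on simulated data. Replicates are biological per the labels; their pairwise correlation of log2 CPM was 0.968 to 0.981.

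All 10 genes are described, with values in every library for those called against the Col-0 effect. From each pathway list, the called genes with the highest and lowest fold change in a family of comparisons were eligible to be named, among genes with a mean of at least 1 CPM. Not all eligible genes were named. The members and lists were chosen with earlier results of these data known. Alternatives were the STAR matrix, DESeq2 1.42.0, RLE scaling, the unfiltered matrix, counts divided by 4, a replicate block, the 6 libraries compared alone, and each library left out in turn.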

Additional observations from a re-analysis of the deposited data

Results flagged for a closer look

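The estradiol effect differed between genotypes, by a test of the difference itself in edgeR, for these values of the 10 genes. In icals3m against Col-0 at 48 h the log2 differences were -0.60 for IAA1, -0.57 for IAA2, -1.23 for IAA3, -0.59 for IAA7 and -1.20 for IAA14. In icals3m against Col-0 at 72 h they were -1.03 for IAA7 and -1.94 for IAA14. In PD-plug against Col-0 at 48 h the difference was -0.44 for IAA7. In icals3m against PD-plug they were -0.93 for IAA3 at 48 h, and -0.53 for IAA2, -0.97 for IAA7 and -1.70 for IAA14 at 72 h. In all of them the estradiol effect, not the level, was lower in the first-named line. IAA2 at 48 h averaged 61.8 CPM with estradiol and 70.0 CPM with DMSO in icals3m. In Col-0 it averaged 60.1 and 45.8 CPM.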

How the results depend on the processing

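Of 290 pairs of a gene and a comparison, 52 passed the threshold, and 0 of these 52 changed sign under any alternative run. DESeq2 and counts divided by 4 kept all 52 and added 1 each; RLE size factors kept 51, no filter on low counts 49, and fits restricted to 6 libraries kept 25 of their 34. The STAR matrix kept 30. Its calls within genotypes were 11 against 23, those against the Col-0 effect 4 against 8, and those over time 7 against 11; the cause was not tested. Leaving out 1 library at a time gave 19 to 25 calls within genotypes, 5 to 10 against the Col-0 effect, 3 to 5 between lines, 5 to 7 without estradiol and 8 to 12 over time. Same-numbered estradiol and DMSO samples did not deviate together (36 pairs, correlation -0.0785 to 0.0857), so they share only a number; the replicate block gave 24 calls within genotypes, 10 against the Col-0 effect, 4 between lines, 6 without estradiol and 11 over time, with all 52 kept. IAA14 at 72 h in all 3 icals3m comparisons, and IAA2 and IAA3 against Col-0 at 48 h, passed under every alternative and without any single library. The other estradiol calls that held in this way were within genotypes. They were IAA7 at 72 h and IAA3 at 48 h in icals3m, IAA1 at 72 h in PD-plug and IAA3 at 12 h in Col-0. No scaling moved the median of all genes by over 0.1 on the log2 scale (at most 0.066 under any setting). With 3 libraries a group, low genes such as IAA6, IAA29 and IAA19 had standard errors too wide to show changes of the size seen in IAA7.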
